A study of Mus musculus with 18 samples.

Results

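The genes described here are 7 members of the LIF-STAT3 pathway in mouse embryonic stem (mES) cells, chosen by name for their place in the pathway, with earlier results of these data known. They are the receptor genes *Lifr* and *Il6st*, the kinase gene *Jak1*, the transcription factor gene *Stat3*, and the STAT3 target genes *Socs3*, *Pim1* and *Bcl3*. All 7 of the 54446 mouse genes in the count tables were found by Ensembl identifier, and all 7 passed the filter on low counts that left 19910 genes to be tested.

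LIF is a cytokine that is added to mES cell cultures to keep the cells self-renewing. It binds a receptor made of the LIFR chain and the signalling chain encoded by *Il6st*, which related cytokines also use. JAK kinases bound to the receptor phosphorylate STAT3, and STAT3 then enters the nucleus and switches on its target genes. Among these targets, SOCS3 binds the receptor complex and damps the signal, PIM1 is a kinase that promotes survival, and BCL3 is a nuclear partner of NF-κB proteins.

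The study compared nascent RNA in wild-type (WT) and *Tet2*-/- (Tet2-KO) mES cells. RNA made during 10 min, 20 min or 40 min of exposure to 1 mM 5-ethynyl uridine (EU), a uridine analogue that cells build into new RNA, was biotinylated, pulled down and sequenced, with 3 libraries for each of the 6 groups of genotype and time. All cells grew in medium with 15% serum, LIF, 3 µM of CHIR99021, a GSK3 inhibitor, and 1 µM of PD0325901, a MEK inhibitor, had been passaged on gelatin to clear feeder cells, and were labelled 42 h after seeding. Every comparison below was therefore made with LIF present throughout, and no library without LIF was part of the design. The sources name a single origin for the cells of each genotype, so a difference between genotypes and a difference between cell lines cannot be told apart. The replicates are dishes of those cells, and p-values measure the spread between dishes only.

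Each library held 17931614 to 23069143 reads on genes and 44162 to 512186 reads on ERCC transcripts, synthetic RNAs that the authors added to the eluted RNA in proportion to the total RNA of each sample. Values are given on 2 scales. The share is a gene's reads per 1000000 reads on genes, abbreviated CPM. The level is a gene's reads per 1000 ERCC reads, and so relates to total RNA and not to cells, and in bulk RNA fewer cells of a type and less RNA per cell cannot be told apart. The share of *Tet2* itself ran from 589 to 741 CPM over the WT libraries and from 529.7 to 643 over those labelled Tet2-KO, and since such a sum over all exons and introns is no check of the deletion, groups are named as labelled. Summed shares of 10 pluripotency markers were 2151 to 2305 CPM in WT and 1533 to 1739 in Tet2-KO. Of the 9 tested, 6 were lower and 3 higher by share (32.0% and 24.6% of all tested genes). *Sox2*, which lies inside *Sox2ot* on the same strand, was at 0 in all libraries. Summed shares of 9 feeder fibroblast markers (*Fn1* left out) were 28.8 to 30.01 in WT at 10 min and 19.4 to 20.97 in Tet2-KO at 20 min. They were 5.08 to 10.1 in the other 4 groups, and none of the markers was at 0 in a whole group. With *Fn1*, which held most of the reads, the sums in WT were 1063 to 1110, 1025 to 1059 and 1068 to 1112 at 10, 20 and 40 min. In Tet2-KO they were 938.8 to 980.3, 882.8 to 907 and 853.4 to 885.4. Neither the WT group at 10 min nor the Tet2-KO group at 20 min then stood out. Of the 6 feeder markers tested, 2 were higher and 1 lower by share in Tet2-KO (24.6% and 32.0% of all tested genes). Fold changes between genotypes of the main genes are also shown for each labelling time. Only 40 min involves neither the WT group at 10 min nor the Tet2-KO group at 20 min. Differences between genotypes from 20 and 40 min together still include the Tet2-KO group at 20 min. Fold changes of neighbouring genes and of further pathway genes are given only as means over all labelling times.

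Reads counted here came from whole gene spans, introns included. Of 452 protein-coding genes that lie inside another gene of the same strand, 451 had 0 reads in all libraries, against 11.3% of those inside a gene of the opposite strand only and 8.6% of those inside neither. The lengths of the 7 genes are therefore given as spans. Coordinates are of GRCm38 with GENCODE M21 gene models. *Lifr* (ENSMUSG00000054263.12) lies on chromosome 15 from 7090614 to 7197489 on the plus strand, and *Il6st* (ENSMUSG00000021756.12) on chromosome 13 from 112464070 to 112510086 on the plus strand. *Jak1* (ENSMUSG00000028530.14) lies on chromosome 4 from 101152367 to 101265282 on the minus strand, and *Stat3* (ENSMUSG00000004040.16) on chromosome 11 from 100885098 to 100939540 on the minus strand. *Socs3* (ENSMUSG00000053113.3) lies on chromosome 11 from 117966079 to 117970047 on the minus strand, *Pim1* (ENSMUSG00000024014.7) on chromosome 17 from 29490753 to 29496112 on the plus strand, and *Bcl3* (ENSMUSG00000053175.17) on chromosome 7 from 19808462 to 19822770 on the minus strand. The 3 target genes are the short ones, with spans of 3969, 5360 and 14309 bases, and the 4 signalling genes span 46017 to 112916 bases.

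A STAT dimer is known to bind a palindromic site spelled TTCNNNGAA, which reads the same on both strands. The 250 bases before the RefSeq start of each gene were searched for these letters. Among the 7 genes only *Socs3* had a match, in its window on chromosome 11 from 117969367 to 117969616 (GRCm38.p6), and 7.02% of 32851 promoter windows of the genome hold such letters. For *Socs3* alone among the 7, the bases after the RefSeq start were not found in a GENCODE transcript, and the window rests on that start. The stretch is shown because *Socs3* is the feedback target of the pathway. It runs from 117969482 to 117969550 on the minus strand, 5′ to 3′, with the match (117969512 to 117969520, first base at -154 from the RefSeq start) in capitals, and it overlaps 0 annotated exons but lies within the span of 1 annotated transcript of *Socs3*, and so in an intron of it.
Socs3: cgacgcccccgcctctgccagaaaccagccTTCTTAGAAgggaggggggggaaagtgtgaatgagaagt
The stricter spelling TTCCNGGAA, found in 0.913% of windows and included in the first, was in none of the windows of the 7 genes. These are matches of letters only, and binding was not measured here.

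Compared per kilobase of span, *Pim1* had the highest mean share in WT at each labelling time and *Jak1* the lowest, while the order between them changed with time. *Il6st* (4.89 CPM per kilobase) was above *Socs3* (3.42) at 10 min and below it at 40 min (4.33 and 6.88), and *Bcl3* was below *Stat3* at 10 min (1.999 and 2.63) and above it at 40 min (4.10 and 2.79). Over the 9 WT libraries, the share per kilobase of span was 4.80 to 7.29 for *Pim1*, 2.92 to 7.50 for *Socs3* and 4.25 to 4.98 for *Il6st*. These 3 genes overlapped. It was 1.76 to 4.32 for *Bcl3*, 2.61 to 2.86 for *Stat3*, 1.69 to 1.82 for *Lifr* and 0.696 to 0.759 for *Jak1*, so that *Bcl3* overlapped *Socs3*, *Il6st*, *Stat3* and *Lifr*, whereas *Stat3*, *Lifr* and *Jak1* were each separate from the next. In Tet2-KO the range of *Il6st* was 2.64 to 2.92, below its WT range. Per kilobase of merged exons, which ignores that introns were counted, the order of the WT means was *Il6st* (19.1), *Lifr* (17.6), *Bcl3* (17.3), *Stat3* (15.6), *Jak1* (11.5), *Pim1* (9.36) and *Socs3* (6.88).

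The main question was whether the pathway genes differ between the genotypes. Averaged over the labelling times, 6 of the 7 genes had a lower share of gene reads in Tet2-KO than in WT and 0 had a higher one (edgeR quasi-likelihood test, adjusted p under 0.05), whereas per ERCC read 6 of the 7 were higher and 0 lower. The counts of 0 were also 0 at an unadjusted p under 0.05 and with DESeq2. Among all 19910 tested genes, 32.0% had a lower share and 24.6% a higher one, and per ERCC read 80.5% were higher and 4.15% lower. The median log2 fold change of all tested genes was -0.037 by share and 0.70 per ERCC read, and that of the 7 genes was -0.19 by share and 0.54 per ERCC read. On both scales, *Il6st*, *Socs3* and *Stat3* lay lowest among the 7. Both scales use the same counts and differ only in the library totals. The order of the genes on one scale thus nearly fixes that on the other and is not a separate result.

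**Figure D1:**
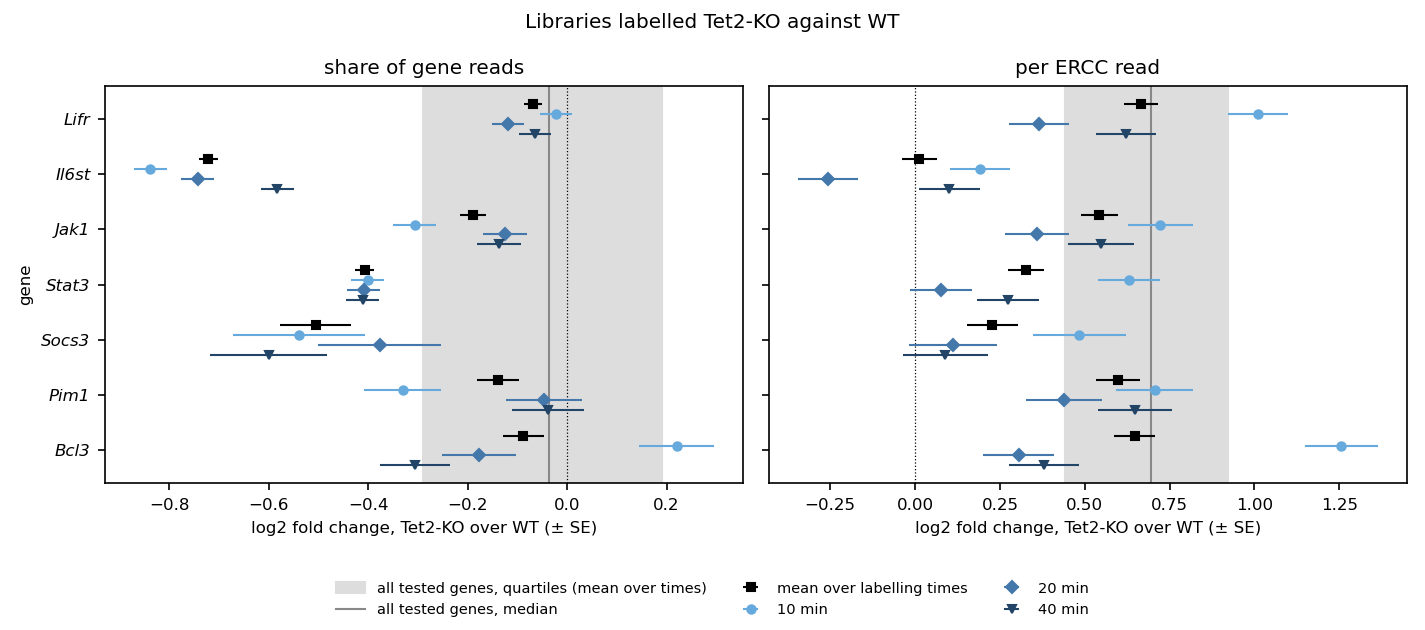
Log2 fold change of each gene (rows) in Tet2-KO over WT by share of gene reads (left) and per ERCC read (right), for the mean over labelling times and for each time, with bars of 1 SE. The grey band and line are the quartiles and median of all 19910 tested genes. *Il6st*, at -0.72 by share and 0.01 per ERCC read, lies farthest to the left in both panels for the mean, and *Socs3* at 40 min (-0.60 and 0.09). Both panels use the same counts, so the order of the genes is nearly the same in each.

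*Il6st*, the signalling chain of the receptor, had the largest difference by share of the 7 genes over all times, although at 40 min *Socs3* (-0.60) was slightly below it (-0.58). Its share in WT was 221, 229 and 225 CPM at 10 min, 209, 209 and 214 at 20 min, and 199.6, 203 and 195 at 40 min. The Tet2-KO libraries held 122, 127 and 129 at 10 min, 123, 121 and 133 at 20 min, and 134, 135 and 130.3 at 40 min. Every Tet2-KO library was thus below every WT library at every time. The log2 fold change was -0.72 ± 0.02 (SE, adjusted p = 8.68e-26), or 0.606 of the WT share, and the exact permutation test over genotypes within times gave p = 0.00025, the smallest it can give.

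Per ERCC read, *Il6st* was the only one of the 7 with no difference called over all times. Its level in WT was 10.3, 11.7 and 9.64 reads per 1000 ERCC reads at 10 min, 30.2, 32.8 and 30.01 at 20 min, and 48.6, 52.6 and 46.8 at 40 min. For Tet2-KO it was 11.7, 11.4 and 12.9 at 10 min, 23.5, 26.2 and 28.1 at 20 min, and 57.7, 49.2 and 51.7 at 40 min. The genotypes overlapped at 10 min and 40 min and were separate at 20 min, where Tet2-KO was lower. The mean difference was 0.01 ± 0.05 on the log2 scale (adjusted p = 0.831, 95% interval -0.09 to 0.11), a range that lies below the lower quartile of all tested genes, 0.44. At single times the log2 fold change was 0.19 (adjusted p = 0.0397) at 10 min, -0.26 (adjusted p = 0.00877) at 20 min and 0.10 (adjusted p = 0.309) at 40 min. The call at 10 min was lost without WT replicate 1 (0.18) or 3 (0.13) or Tet2-KO replicate 1 (0.21) or 3 (0.14) of that time, with the replicate block (adjusted p = 0.0502), with no filter on low counts (adjusted p = 0.0639) and in a fit of those 6 libraries alone (adjusted p = 0.0882), and the call at 20 min was lost without WT replicate 2 (-0.21) or Tet2-KO replicate 1 (-0.19).

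*Lifr*, the chain that binds LIF, differed least by share among the genes that were called. In WT its share was 193, 182 and 192 CPM at 10 min, 186, 180.5 and 189.9 at 20 min, and 192, 193 and 195 at 40 min. The Tet2-KO shares were 186, 183 and 189 at 10 min, 173, 166 and 174 at 20 min, and 188, 177 and 189 at 40 min. The genotypes overlapped at 10 min and were separate at the later times, with Tet2-KO lower. By share its log2 fold change was -0.07 ± 0.02 (adjusted p = 0.00165), a call that was lost with TMM (-0.03, adjusted p = 0.169) and with DESeq2 (-0.03, adjusted p = 0.127), while per ERCC read the gene was higher by 0.67 ± 0.05 (adjusted p = 2.09e-32), close to the median of all genes. The levels showed this without overlap at any time. They were 8.996, 9.26 and 8.20 reads per 1000 ERCC reads in WT against 17.8, 16.4 and 19.1 in Tet2-KO at 10 min, and 46.6, 49.9 and 46.6 against 80.8, 64.8 and 74.8 at 40 min.

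*Jak1*, the kinase that binds the *Il6st* chain, had a somewhat lower share in Tet2-KO. WT libraries held 85.3, 83.2 and 79.1 CPM at 10 min, 85.7, 82.4 and 84.5 at 20 min, and 78.6, 83.2 and 84.5 at 40 min. Tet2-KO libraries held 68.6, 64.5 and 66.9 at 10 min, 80.4, 74.4 and 76.8 at 20 min, and 75.9, 73.3 and 74.7 at 40 min. The genotypes were separate at every time, most widely at 10 min. On the log2 scale the difference by share was -0.19 ± 0.03 (adjusted p = 1.09e-07) over all times, -0.31 at 10 min, -0.13 at 20 min and -0.14 at 40 min. The call at 20 min was lost with TMM (-0.09), with DESeq2 (-0.10), without WT replicate 1 (-0.11) or 3 (-0.12) of 20 min and without Tet2-KO replicate 2 (-0.10) or 3 (-0.12), and the call at 40 min was lost without WT replicate 3 (-0.12) or Tet2-KO replicate 2 (-0.12) of 40 min. Per ERCC read *Jak1* was higher by 0.54 ± 0.06 (adjusted p = 2.24e-20), with levels of 3.97, 4.23 and 3.39 in WT against 6.59, 5.78 and 6.73 in Tet2-KO at 10 min and no overlap at any time.

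*Stat3*, the transcription factor of the pathway, had a lower share by about the same amount at every labelling time. Its share in WT was 144, 144 and 142 CPM at 10 min, 146, 150.2 and 156 at 20 min, and 151, 153 and 152 at 40 min. In Tet2-KO the share of *Stat3* was 107, 107 and 112 at 10 min, 115, 116 and 109.6 at 20 min, and 116, 113 and 113 at 40 min. No Tet2-KO library reached the WT range at any time. The log2 fold change by share was -0.41 ± 0.02 over all times (adjusted p = 8.82e-19, exact permutation p = 0.00025), and -0.40, -0.41 and -0.41 at 10, 20 and 40 min. Per ERCC read it was 0.33 ± 0.05 (adjusted p = 1.83e-09), and by time 0.63, 0.08 (adjusted p = 0.484) and 0.27, the last of which was not called without Tet2-KO replicate 1 of 40 min (0.20). The 3' end of *Stat3* shares 72 bases with *Stat5a* on the opposite strand, and *Stat5a* held only 14 to 62 reads per library.

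**Figure D2:**
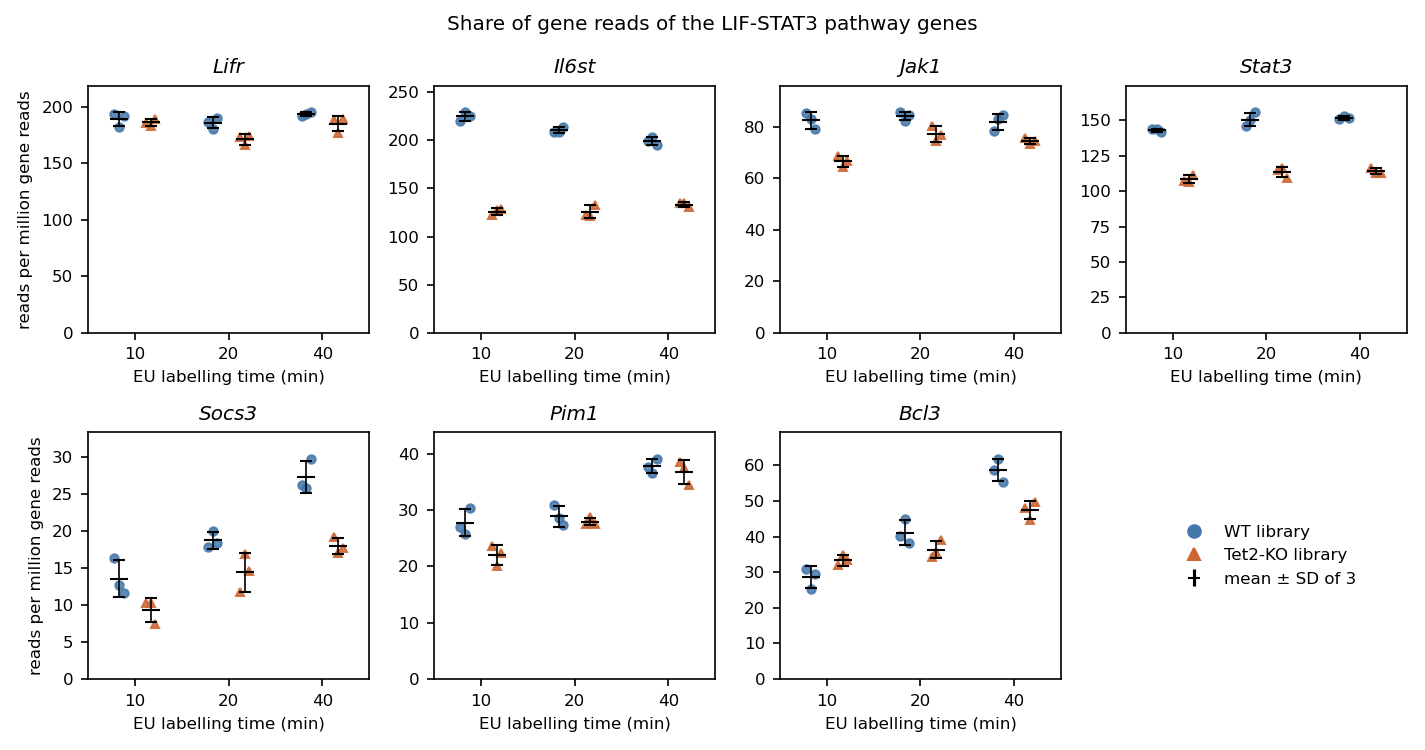
Share of gene reads (y axis, CPM, starting at 0) of the 7 genes by EU labelling time, with WT libraries as circles, Tet2-KO libraries as triangles and the mean ± SD of the 3 libraries of a group in black. *Il6st*, *Jak1*, *Stat3* and *Socs3* are separate between genotypes at all 3 times, and *Socs3*, *Pim1* and *Bcl3* are highest at 40 min in both genotypes.

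*Socs3*, the feedback inhibitor of the receptor complex, was the target gene with the largest difference by share. The WT shares were 16.4, 12.8 and 11.6 CPM at 10 min, 17.9, 20.0 and 18.4 at 20 min, and 26.3, 25.9 and 29.8 at 40 min. For Tet2-KO the shares were 10.2, 10.3 and 7.50 at 10 min, 11.8, 16.9 and 14.6 at 20 min, and 19.2, 17.1 and 17.8 at 40 min. The genotypes did not overlap at any time, although the gap at 10 min and 20 min was narrow beside the spread. By share the log2 fold change was -0.51 ± 0.07 (adjusted p = 3.12e-07), or 0.704 of the WT share, and it was -0.54, -0.38 and -0.60 at 10, 20 and 40 min. At 20 min the call was lost without WT replicate 2 (-0.33) or Tet2-KO replicate 1 (-0.25) of that time. Per ERCC read *Socs3* overlapped between genotypes at every time, with 0.764, 0.649 and 0.496 reads per 1000 ERCC reads in WT against 0.982, 0.920 and 0.756 in Tet2-KO at 10 min, and 6.39, 6.70 and 7.13 against 8.22, 6.26 and 7.06 at 40 min. The log2 fold change per ERCC read was 0.23 ± 0.08 (adjusted p = 0.00349), but the exact permutation test did not reach the threshold (p = 0.0735) and the value from 20 and 40 min alone was 0.10 (adjusted p = 0.308).

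*Pim1*, the survival kinase, differed by share at 10 min. In WT *Pim1* had 27.1, 25.7 and 30.4 CPM at 10 min, 30.8, 28.5 and 27.3 at 20 min, and 37.6, 36.6 and 39.1 at 40 min. In Tet2-KO it had 23.6, 20.1 and 22.3 at 10 min, 27.5, 28.7 and 27.6 at 20 min, and 38.5, 37.4 and 34.4 at 40 min. The genotypes were separate at 10 min and overlapped at the later times. Its log2 fold change by share was -0.33 ± 0.08 at 10 min (adjusted p = 0.000621), -0.05 at 20 min (adjusted p = 0.679) and -0.04 at 40 min (adjusted p = 0.727). Its mean of -0.14 ± 0.04 (adjusted p = 0.00672) was not called with TMM (-0.10, adjusted p = 0.0512) or from 20 and 40 min alone (-0.04, adjusted p = 0.537). The WT libraries at 10 min are those with the highest feeder fibroblast markers (*Fn1* left out), whose part in this difference was not tested. Per ERCC read *Pim1* was higher by 0.60 ± 0.06 (adjusted p = 1.29e-18), with 1.26, 1.31 and 1.30 reads per 1000 ERCC reads in WT against 2.26, 1.80 and 2.25 in Tet2-KO at 10 min, and 9.15, 9.47 and 9.35 against 16.5, 13.7 and 13.6 at 40 min. A gene on the opposite strand, Gm26885, shares 1173 bases with *Pim1* and held 124 to 250 reads per library.

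*Bcl3*, the NF-κB partner, changed side with labelling time. WT shares of *Bcl3* were 31.0, 25.2 and 29.5 CPM at 10 min, 40.3, 45.0 and 38.2 at 20 min, and 58.7, 61.8 and 55.5 at 40 min. Tet2-KO shares were 31.9, 34.9 and 33.3 at 10 min, 34.3, 35.7 and 39.1 at 20 min, and 48.1, 44.8 and 49.7 at 40 min. Tet2-KO was above WT at 10 min, overlapped it at 20 min and was below it at 40 min. The log2 fold change by share was 0.22 ± 0.08 at 10 min (adjusted p = 0.018), -0.18 ± 0.07 at 20 min (adjusted p = 0.0567) and -0.31 ± 0.07 at 40 min (adjusted p = 0.000595), and -0.09 ± 0.04 over all times (adjusted p = 0.0774). The call at 10 min was lost without WT replicate 2 (0.14) or Tet2-KO replicate 2 (0.19) of that time and in a fit of those 6 libraries alone (0.22, adjusted p = 0.066), and the value from 20 and 40 min alone was -0.24 (adjusted p = 0.000159). Per ERCC read *Bcl3* was higher at every time, by 1.26 ± 0.11, 0.30 ± 0.11 and 0.38 ± 0.10 at 10, 20 and 40 min, with levels of 1.45, 1.28 and 1.26 in WT against 3.06, 3.12 and 3.36 in Tet2-KO at 10 min. The call at 20 min was lost without WT replicate 3 (0.22) or Tet2-KO replicate 3 (0.23) of that time.

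Counted by time, the share was lower in Tet2-KO for 5 of the 7 genes at 10 min, 5 at 20 min and 5 at 40 min, against 27.1%, 20.7% and 19.6% of all tested genes. It was higher for 1, *Bcl3* at 10 min, against 17.9% of all genes. Per ERCC read, 7 of the 7 genes were higher at 10 min (79.0% of all genes), 4 at 20 min (53.7%) and 5 at 40 min (68.2%), and 1, *Il6st* at 20 min, was lower (4.86%). By share, 4 genes (*Il6st*, *Jak1*, *Stat3* and *Socs3*) had Tet2-KO libraries below the WT libraries at all 3 times, as did 13.9% of all tested genes. Per ERCC read, 3 genes (*Lifr*, *Jak1* and *Pim1*) had them above at all 3 times, as did 51.6% of all tested genes. From 20 and 40 min alone, 6 of the 7 genes still had a lower share, with *Bcl3* called and *Pim1* not, against 25.6% of all tested genes.

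Whether the difference between genotypes itself changed from 10 min to 40 min of labelling was tested as an interaction. By share it changed for *Il6st*, whose difference shrank by 0.25 ± 0.05 log2 units (adjusted p = 0.000393), and for *Bcl3*, whose fold change moved by -0.53 ± 0.10 (adjusted p = 0.000824). A share that gained on WT in this sense was called for 5.89% of all tested genes and one that lost for 3.36%. Per ERCC read, the fold change was smaller at 40 min for *Bcl3* (-0.88 ± 0.15, adjusted p = 3.57e-06), *Lifr* (-0.39 ± 0.13, adjusted p = 0.0172) and *Stat3* (-0.36 ± 0.13, adjusted p = 0.0339), against 19.3% of all tested genes and a median of -0.29 over all genes. The call for *Lifr* was lost without WT replicate 3 (-0.34) or Tet2-KO replicate 3 (-0.33) of 10 min, or without WT replicate 2 (-0.35) or Tet2-KO replicate 2 (-0.30) of 40 min, and that for *Stat3* was lost without any of 8 of the 18 libraries (-0.37 to -0.29). The interaction for *Pim1* by share was 0.29 ± 0.11 (adjusted p = 0.076) and that for *Jak1* was 0.17 ± 0.06 (adjusted p = 0.0872).

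Within each genotype, the share of the target genes rose with longer labelling. From 10 min to 40 min in WT, *Bcl3* rose by 1.04 ± 0.07, *Socs3* by 1.01 ± 0.12 and *Pim1* by 0.45 ± 0.07 on the log2 scale (adjusted p = 1.38e-13, 1.93e-08 and 6.01e-06). In Tet2-KO, *Socs3* rose by 0.95 ± 0.13, *Pim1* by 0.74 ± 0.08 and *Bcl3* by 0.51 ± 0.07 (adjusted p = 5.28e-07, 1.44e-09 and 1.01e-06). The groups at 10 min and 40 min did not overlap for any of these 3 genes in either genotype. How many of all tested genes had no such overlap was not computed. The 4 signalling genes moved little. In WT *Stat3* rose by 0.09 ± 0.03 (adjusted p = 0.0325), *Il6st* fell by 0.17 ± 0.03 (adjusted p = 3.42e-05), and *Lifr* (0.03) and *Jak1* (-0.01) were not called. In Tet2-KO *Jak1* rose by 0.16 ± 0.05 (adjusted p = 0.00508), and *Il6st* (0.08), *Stat3* (0.07) and *Lifr* (-0.01) were not called.

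In all, 4 of the 7 genes rose in WT (16.1% of all tested genes) and 1 fell (29.5%), and 4 rose in Tet2-KO (16.5%). Over all tested genes the median change was -0.14 for WT and -0.06 for Tet2-KO. With TMM and DESeq2, *Lifr* in WT (0.13 and 0.13) and *Il6st* (0.12 and 0.12) and *Stat3* (0.12 and 0.11) in Tet2-KO were called as rising. The fall of *Il6st* in WT was not called with TMM (-0.07, adjusted p = 0.0656) or with DESeq2 (-0.08, adjusted p = 0.0632), and *Jak1* in WT changed sign with both (0.09), as did *Lifr* in Tet2-KO (0.03 and 0.02). From 20 min to 40 min, which leaves out the groups at 10 min, *Socs3*, *Bcl3* and *Pim1* rose in WT by 0.54, 0.51 and 0.39, and in Tet2-KO *Pim1* rose by 0.40 and *Bcl3* by 0.39, whereas *Socs3* was at 0.32 (adjusted p = 0.0882). The call for *Stat3* in WT was lost without WT replicate 3 of 10 min (0.08) or any WT replicate of 40 min (0.08 to 0.09). It was also lost with no filter on low counts (0.08, adjusted p = 0.0883), and from 20 min to 40 min *Stat3* in WT was at 0.01 (adjusted p = 0.843).

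**Figure D3:**
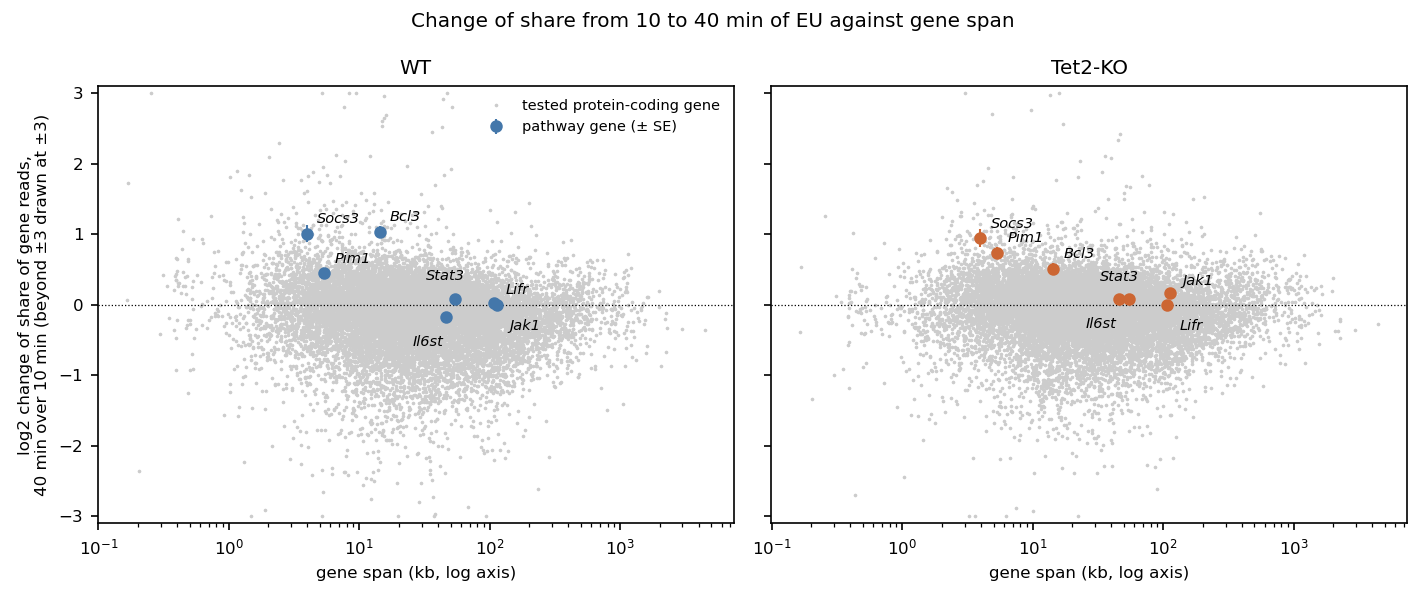
Log2 change of the share of gene reads from 10 min to 40 min of EU (y axis) against gene span in kilobases (x axis, log scale) in WT (left) and Tet2-KO (right), with tested protein-coding genes as grey dots and the 7 genes as large points with bars of 1 SE. *Socs3*, *Bcl3* and *Pim1* lie high among short genes, at 1.01, 1.04 and 0.45 in WT.

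The target genes are short, and their changes are set here beside those of genes of like span. Among tested protein-coding genes spanning under 5 kb, where *Socs3* falls, the median change in WT was 0.01 (quartiles -0.34 and 0.33) and 16.6% rose. Among those of 5 to 15 kb, where *Pim1* and *Bcl3* fall, it was -0.05 (quartiles -0.36 and 0.21) and 18.5% rose. In Tet2-KO the medians of these classes were -0.002 and 0.02. All of the 3 target genes thus lay above the upper quartile of their class in both genotypes. Whether span has a part in their rise was not tested.

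The authors took the slope of RNA level on labelling time as the transcription rate, with CPM turned into attomoles by a linear fit to the ERCC transcripts. Here slopes were taken of reads per 1000 ERCC reads, a plain ratio, and so are not the authors' rates. Every one of the 7 slopes was larger in Tet2-KO, but none of the differences passed the exact permutation test of slopes. For lines with an intercept over all labelling times that test can hardly go below 0.1. It therefore cannot decide whether these slopes differ, and they are given mainly as a description with SE. Lines forced through the origin did pass the permutation test for *Lifr*, *Jak1*, *Stat3*, *Pim1* and *Bcl3* (exact permutation p = 0.00025 to 0.00175). Such lines largely restate the level per ERCC read, which was higher for 80.5% of all tested genes. How many of all genes would pass with such lines was not computed. The slopes in reads per 1000 ERCC reads per min were 1.26 ± 0.08 (SE, 9 libraries) in WT and 1.87 ± 0.12 in Tet2-KO for *Lifr*, a ratio of 1.48 (exact permutation p = 0.171). They were 1.24 ± 0.12 and 1.36 ± 0.07 for *Il6st*, a ratio of 1.10 (p = 0.365, exact permutation test), and 0.526 ± 0.047 and 0.764 ± 0.049 for *Jak1*, a ratio of 1.45 (p = 0.127, exact permutation test). For *Stat3* they were 0.991 ± 0.080 and 1.16 ± 0.07, a ratio of 1.17 (p = 0.346, exact permutation test). Among the targets, *Pim1* had the largest ratio, 1.58 (0.266 ± 0.007 and 0.421 ± 0.026, exact permutation p = 0.1). *Bcl3* had a ratio of 1.21 (0.437 ± 0.024 and 0.531 ± 0.037, exact permutation p = 0.317) and *Socs3* of 1.03 (0.203 ± 0.007 and 0.210 ± 0.017, exact permutation p = 0.834). The median ratio over 15075 protein-coding genes was 1.54, and 10.4% of them had a ratio below 1. *Pim1* was the only one of the 7 above that median, and *Socs3*, *Il6st* and *Stat3* were lowest, the same 3 genes that were lowest in fold change in these libraries. From 10 and 20 min alone, only *Jak1* and *Pim1* had the larger slope in Tet2-KO. Slopes from these times were not computed over all genes. The median log2 fold change per ERCC read of all tested genes was 0.96 at 10 min and 0.45 at 20 min.

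**Figure D4:**
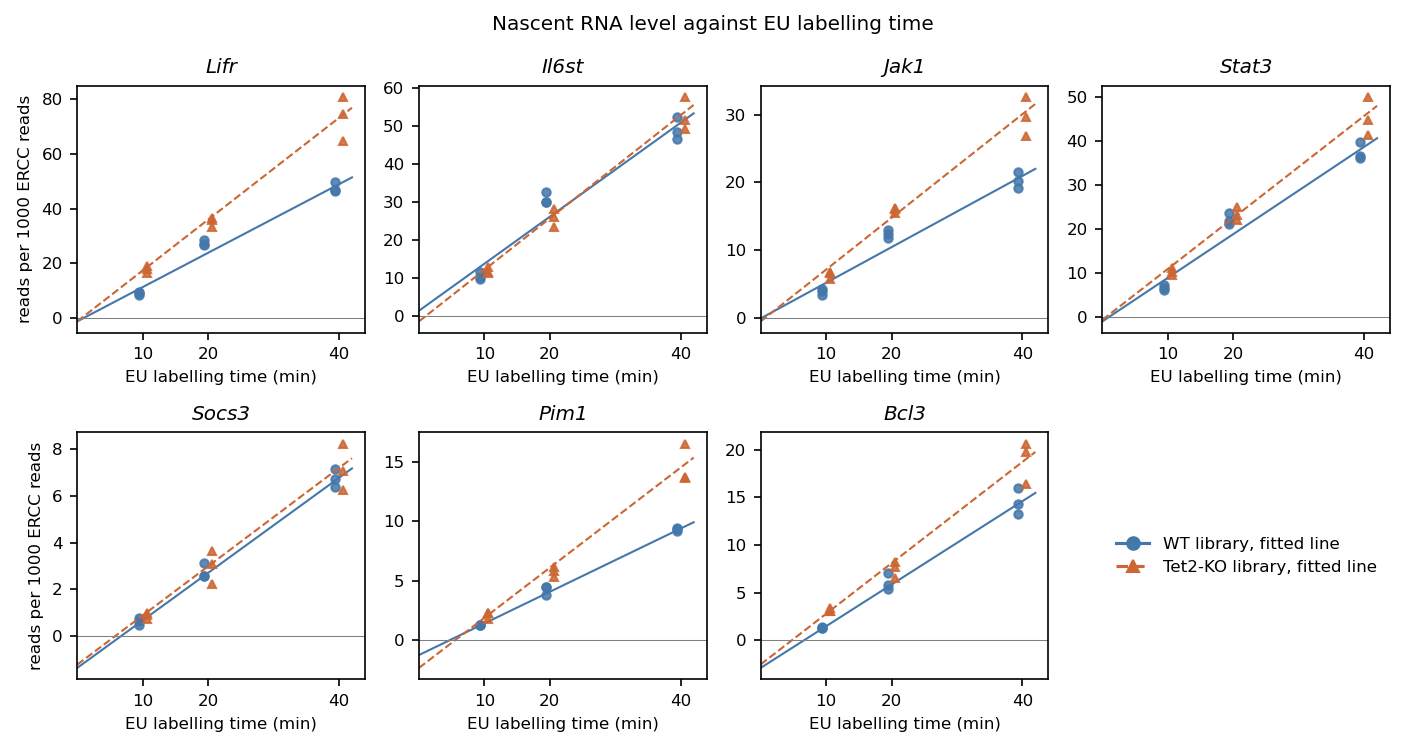
Level of nascent RNA (y axis, reads per 1000 ERCC reads) of the 7 genes against EU labelling time in minutes, with WT libraries as circles and solid lines and Tet2-KO libraries as triangles and dashed lines, both least-squares fits with an intercept. The lines of *Il6st* and *Socs3* nearly coincide (slope ratios 1.10 and 1.03), whereas those of *Lifr*, *Jak1* and *Pim1* separate (1.48, 1.45 and 1.58).

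The lower share of *Il6st* went with lower shares of genes beside it on chromosome 13. Of the 12 tested protein-coding genes that start within 1 Mb after it, 10 had a lower share and 1 a higher one, with a median log2 fold change of -1.35. Of the 7 within 3 Mb before it, 4 were higher and 2 lower, with a median of 0.08. Among all tested genes 32.0% had a lower share and 24.6% a higher one. *Plpp1*, 0.337 Mb after the start of *Il6st*, went from 1066 to 377 CPM (-1.50 ± 0.01), and *Map3k1*, 0.655 Mb before it, went from 91.4 to 73.8 (-0.31 ± 0.03). Of the 7 genes that start 1 to 3 Mb after *Il6st*, 5 were lower and 0 higher, with a median of -0.76. The value of *Il6st*, -0.72, lay between those of *Map3k1* and *Plpp1*. It was below both of the nearest tested genes, *Ankrd55* before it (1.32 ± 0.23, 0.59 CPM in WT and 1.49 in Tet2-KO) and *Il31ra* after it (-0.10 ± 0.13, adjusted p = 0.519, 4.66 CPM in WT and 4.47 in Tet2-KO). Within 1 Mb of the other 6 genes the median of tested protein-coding neighbours was -0.31 beside *Jak1* (12 genes) and between -0.09 and -0.05 beside the rest (7 to 54 genes).

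**Figure D5:**
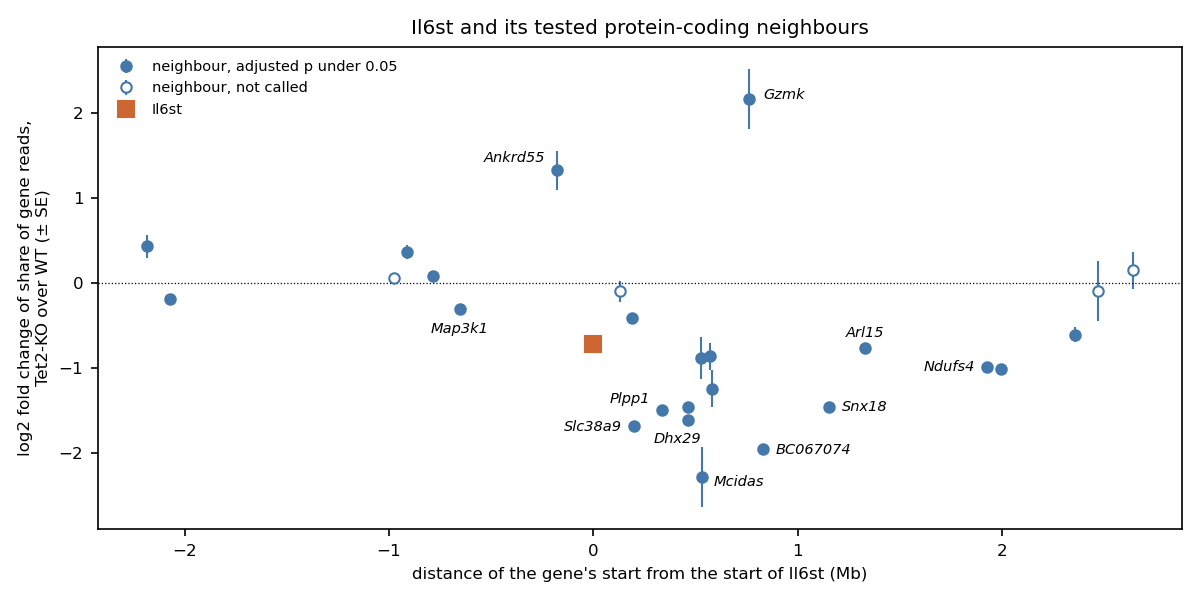
Log2 fold change of the share of gene reads in Tet2-KO over WT, mean over labelling times, with bars of 1 SE (y axis), for *Il6st* (square) and tested protein-coding genes within 3 Mb (circles, open where not called) by distance of their start from that of *Il6st* (x axis, Mb). Genes before *Il6st* have a median of 0.08, those up to 1 Mb after it a median of -1.35 and those 1 to 3 Mb after it a median of -0.76.

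How the 7 genes varied together over the 18 libraries is given as a description, since the libraries share genotypes and labelling times. On log2 shares, *Il6st* and *Stat3* were most alike (Pearson r = 0.95 over 18 libraries), followed by *Jak1* and *Stat3* (0.83), *Socs3* and *Pim1* (0.82), *Socs3* and *Bcl3* (0.80), *Il6st* and *Jak1* (0.78) and *Pim1* and *Bcl3* (0.76). The 6 closest pairs thus fell either among *Il6st*, *Jak1* and *Stat3* or among the 3 target genes, and *Il6st* and *Bcl3* were the least alike (0.04). Among 15151 tested protein-coding genes outside the 7, those most like *Stat3* were *Plpp1* (0.991) and *Snx18* (0.989), both beside *Il6st* on chromosome 13, and those most like *Il6st* were *Mep1b* and *Olfr94* (both 0.991). The genes most like *Jak1* were *Unk* (0.939) and *Hmgxb4* (0.933), and those most like *Lifr*, *Lamc1* (0.816) and *Ints6* (0.797), were less close. For the targets they were *Rnf20* and *Nfyb* (both 0.946) for *Socs3*, *Dcun1d2* (0.961) and *Sp1* (0.949) for *Pim1*, and *Mki67* (0.955) and *Hnrnpul1* (0.949) for *Bcl3*.

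The rest of the pathway was read from a list of 49 further genes, of which 48 were tested and *Cntf* had 0 reads. By share, 22 of the 48 were lower in Tet2-KO (32.0% of all tested genes), 10 higher (24.6%) and 16 not called, with a median log2 fold change of -0.13. Per ERCC read 34 were higher (80.5% of all tested genes) and 2 lower (4.15%), with a median of 0.60. Of 12 further STAT3 target genes, 9 had a lower share (32.0% of all tested genes) and 1, the adhesion molecule gene *Icam1* (0.44 ± 0.04), a higher one (24.6%). The largest differences were those of *Junb*, an AP-1 subunit (-1.29 ± 0.07, adjusted p = 1.19e-16), and *Gbx2*, a homeobox gene (-1.09 ± 0.14, adjusted p = 4.09e-08), which were also the 2 lower per ERCC read (-0.56 ± 0.10 and -0.35 ± 0.14). *Klf4* (-0.64 ± 0.02) and *Tfcp2l1* (-0.47 ± 0.01), transcription factors through which LIF is known to act in mES cells, were named after their values were seen. Both were lower by share, and per ERCC read they were at 0.10 ± 0.05 (adjusted p = 0.0846) and 0.26 ± 0.05 (adjusted p = 2.37e-07).

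Among the 9 further kinase and STAT genes, 5 had a lower share and 0 a higher one, beside the same 32.0% and 24.6% of all tested genes. The largest differences were those of *Stat5a* (-0.71 ± 0.17, 14 to 62 reads per library) and *Stat6* (-0.44 ± 0.09), and the kinase genes *Jak2* (0.08, adjusted p = 0.216) and *Jak3* (0.08, adjusted p = 0.31) were not called. Of 17 adaptor and inhibitor genes 6 were higher and 5 lower, and of 10 tested ligand and receptor genes 3 were higher and 3 lower, against 24.6% and 32.0% of all tested genes. The lower adaptor and inhibitor genes were led by *Pias4*, an inhibitor of STAT proteins (-0.64 ± 0.05), and *Socs1*, a relative of *Socs3* (-0.63 ± 0.24, 8 to 30 reads per library). Among the ligands and receptors, *Osm*, a cytokine that also signals through *Il6st*, was higher (0.98 ± 0.15) and *Cntfr*, a cytokine receptor chain, lower (-0.58 ± 0.16). Both had at most 85 reads in any library. *Lif* itself (0.21 ± 0.09, adjusted p = 0.042, 101 to 202 reads per library), the cytokine already present in the medium, was another of the 3 ligand and receptor genes that were higher, and *Il6ra* (0.17 ± 0.05) the last.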

How the data were processed

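Nascent RNA of mES cells was sequenced in 18 libraries, 3 for each of 2 genotypes and 3 EU labelling times. The authors trimmed reads with Trimmomatic (0.39), aligned them to mm10 and the ERCC sequences with HISAT2 (2.2.1), and counted reads on GENCODE genes with HTSeq (0.12.4), per the study's methods and processing notes. The HTSeq settings are not given in the sources used here. The deposited files hold raw counts per gene, and 13.16 to 16.88% of listed reads were on no feature.

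Counts were tested with edgeR (4.0.16, quasi-likelihood test, R 4.3.3) in a fit of 6 groups over the 19910 genes that passed filterByExpr, with ERCC read totals (per ERCC read) or gene read totals (share) as library sizes and Benjamini-Hochberg adjustment over all 19910 genes. Fold changes are Tet2-KO over WT, with SE from the F statistic. Single values were tested by a two-sided exact permutation test over 8000 exchanges of genotype within labelling times, and rates are least-squares slopes. The code was tested on simulated data. Same-numbered replicates did not pair (45 pairs, r from -0.07 to 0.06). Further genes were named by a fixed rule, which took up to 2 of each role with the largest difference by share and the 2 protein-coding genes most like each member by log2 of CPM plus 0.5. Of the further pathway genes, *Cntf*, *Icam1*, *Jak2*, *Jak3*, *Lif*, *Il6ra*, *Klf4* and *Tfcp2l1* were named outside that rule. Promoter windows are from RefSeq (GRCm38.p6). DESeq2 (1.42.0) and the other alternatives are in the closing section. The 7 genes and all lists were chosen with earlier results of these data known.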

Additional observations from a re-analysis of the deposited data

Results flagged for a closer look

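The difference between genotypes itself differed between 10 min and 40 min of labelling for 4 of the 7 genes, counting a call on either scale (test of the interaction in edgeR). By share, such a change was called upward for 5.89% and downward for 3.36% of all tested genes. Per ERCC read it was called upward for 0.552% and downward for 19.3%. Groups of 3 libraries were too small to be searched for outlying libraries.

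By share of gene reads, the log2 fold change of *Il6st* moved by 0.255 (adjusted p = 0.000393), from -0.84 at 10 min to -0.58 at 40 min, so that its deficit was smaller after longer labelling. That of *Bcl3* moved by -0.526 (adjusted p = 0.000824), from 0.22 to -0.31. Per ERCC read, the log2 fold change moved by -0.876 for *Bcl3* (adjusted p = 3.57e-06), from 1.26 to 0.38, by -0.388 for *Lifr* (adjusted p = 0.0172), from 1.01 to 0.62, and by -0.357 for *Stat3* (adjusted p = 0.0339), from 0.63 to 0.27. Over all tested genes the median moved by -0.29 per ERCC read and by 0.06 by share. By share, *Lifr* (-0.042, adjusted p = 0.647) and *Stat3* (-0.011, adjusted p = 0.931) were not called. Per ERCC read, the call for *Lifr* was lost without any of 4 of the 18 libraries, and that for *Stat3* without any of 8. The WT libraries at 10 min had the highest summed share of feeder fibroblast markers with *Fn1* left out, 28.8 to 30.01 CPM. The part of these markers in the differences was not tested.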

How the results depend on the processing

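Each fold change and count was recomputed under other settings. Of 2016 recomputed fold changes, 1913 kept their direction and their side of the threshold, 54 lost a call, 22 gained one and 27 changed sign. Many of these fits left out a library that lay outside the groups compared, which could hardly move the fold change. The agreement was thus in part fixed beforehand. As means over the labelling times, 5 to 6 genes were higher per ERCC read and 4 to 7 lower by share under every setting run, the 4 with TMM and 5 with DESeq2. With TMM and DESeq2 the fold change by share at 10 min of *Lifr* became 0.0468 and 0.0466, that of *Jak1* from 10 to 40 min in WT 0.093 and 0.0895, and that of *Lifr* from 10 to 40 min in Tet2-KO 0.0332 and 0.0229. With both, 0 genes fell from 10 to 40 min in WT, as also from 20 to 40 min, an alternative chosen after seeing the data, which gave 0.1113 for *Lifr* and -0.0493 for *Jak1* in Tet2-KO. From 20 and 40 min alone, also chosen after seeing the data, *Il6st* per ERCC read was -0.0782. A fit of the 10 min libraries alone called 0 genes higher by share, with fewer samples to estimate the spread. The replicate block changed only the call for *Il6st* per ERCC read at 10 min (0.19, adjusted p = 0.0502), and 6 genes stayed lower by share.

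Slopes from 10 and 20 min alone were larger in Tet2-KO for 2 genes, with ratios of 0.9432 for *Lifr*, 0.6798 for *Il6st* (exact permutation p = 0.01), 0.841 for *Stat3*, 0.9885 for *Socs3* and 0.9099 for *Bcl3*. Such slopes were not computed over all genes, and the cause was not tested. Slopes from 20 and 40 min gave a ratio of 1.47 for *Il6st* (exact permutation p = 0.03).

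Leaving out each of the 18 libraries in turn moved some values near 0 across it. The range was -0.0104 to 0.0384 for *Il6st* per ERCC read over all times, -0.0537 to 0.2836 at 20 min and -0.0186 to 0.181 at 40 min for *Socs3* per ERCC read, and -0.0878 to 0.0034 at 20 min and -0.0714 to 0.0074 at 40 min for *Pim1* by share. For the change of the share difference from 10 to 40 min it was -0.0248 to 0.0092 for *Stat3* and -0.2194 to 0.0412 for *Socs3*. From 10 to 40 min it was -0.0378 to 0.0229 for *Jak1* in WT and -0.0266 to 0.0191 for *Lifr* in Tet2-KO, and the slope ratio of *Socs3* was 0.9465 to 1.113. The count of genes lower per ERCC read at 20 min was 0 to 1, that of genes higher by share at 10 min 0 to 1, that of a smaller fold change per ERCC read at 40 min 1 to 4, and that of a share gaining on WT 1 to 2. Depth limits *Socs3* most, with shares of 7.50 to 29.8 CPM, and the ERCC reads, down to 44162 per library, limit the levels.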
